A study of Mus musculus with 11 samples.

Results

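Oxidative phosphorylation was followed through 96 of the 25677 genes listed in mouse kidney. Genes were taken by symbol, as those that begin with Nduf followed by a, b, c, s or v, with Uqcr, with Cox and a number from 4 to 8 or with Atp5, together with Sdha, Sdhb, Sdhc and Sdhd, at 10 or more counts over all 11 kidneys. By their known products, 37 of them belong to complex I, 4 to complex II, 8 to complex III, 11 to complex IV and 17 to complex V. The symbols also take in genes that are not subunits of an assembled complex in most cells. These are 8 assembly factors of complex I (Ndufaf1 to Ndufaf8), 7 tissue isoforms and relatives of complex IV subunits and 4 gene copies, and each of these groups was kept apart from the complexes. Ndufa4 was placed with complex IV, where its product is found, and Cyc1, a subunit of complex III, lies outside the symbols.

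The respiratory chain sits in the inner mitochondrial membrane. Complex I takes electrons from NADH and complex II takes them from succinate, complex III passes them to cytochrome c, and complex IV hands them to oxygen. The proton gradient that complexes I, III and IV build drives complex V, the ATP synthase. Most subunits are encoded in the nucleus and a few core subunits are encoded by mitochondrial DNA, so the complexes are built from both. Proximal tubule cells of the kidney are rich in mitochondria and meet the cost of reabsorption mainly in this way.

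RNA was measured in whole kidneys of female mice aged 21 weeks, 1 library for each mouse. The control group (Ctr) held 3 C57BL/6J mice, labelled C57B6. The Lpr group held 4 untreated MRL/lpr mice, a strain with a mutation of Fas that develops a lupus-like nephritis, and the DNase group held 4 MRL/lpr mice that received DNase I, which breaks down DNA released from cells. The MRL/lpr groups share strain and mutation and differ from Ctr in both, so strain and disease cannot be told apart in a comparison with Ctr. In whole tissue, fewer cells of a type and less RNA per cell cannot be told apart either.

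Between 33469858 and 38460873 counts were assigned to genes per kidney. Levels are given as CPM, which are counts relative to the TMM-scaled total of their library, and levels of different genes are compared only in FPKM, which also divides by gene length. Groups were compared with edgeR's quasi-likelihood test, and calls were made at an adjusted p (Benjamini-Hochberg, over all genes tested) under 0.05, without a limit on the fold change. The rule in the study's methods also asks for a log2 fold change beyond 2. It called 1 of the 96 genes in DNase against Ctr, beside 967 of the 16100 genes tested. In Lpr against Ctr it called 0 of the 96, beside 929 of 16074. All 96 genes passed the filter on low counts in every comparison. Lpr against Ctr and DNase against Ctr share the Ctr kidneys, and DNase against Lpr shares the Lpr kidneys with the former, so their values are set side by side and are not independent.

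Kidney Lpr 3 stood apart. The 96 genes took 4.19% of its counts and between 2.06% and 2.89% of the counts of the other 10 kidneys. In Lpr 3, levels relative to the mean of all kidneys changed with gene length by -0.393 log2 units per doubling of length, against -0.0433 to 0.0775 in the others. The 96 genes are short, with a median length of 782 bp against 3471 bp for all genes that passed the filter, and 92 of them are shorter than that median. Lpr 3 had the highest value of the Lpr group for 94 of the 96 genes, which was so for 36.9% of all genes, and the lowest value for 0 of them, against 39.7% of all genes. Over the 32 genes under 600 bp its level was, in the median, 2.76 times that of the median of the other Lpr kidneys, and over the 14 genes longer than 2000 bp it was 1.90 times. Long genes differed among themselves, from 1.05 times for Sdha (2859 bp) to 2.71 for Cox5a (3153 bp) and 2.77 for Ndufb8 (2332 bp). Counts and medians of the 96 genes in comparisons that contain Lpr are therefore given with and without Lpr 3.

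**Figure D1:**
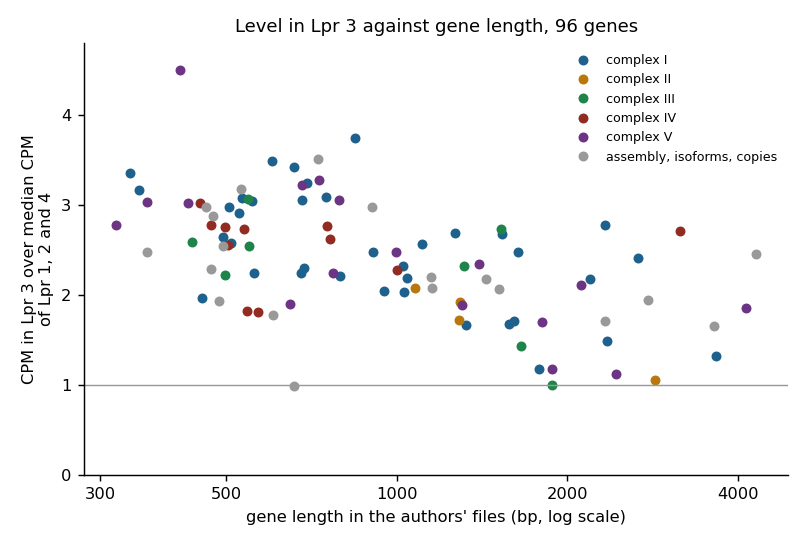
Ratio of the CPM in Lpr 3 to the median CPM of Lpr 1, Lpr 2 and Lpr 4 (vertical axis) against gene length in bp on a log scale, with 1 point per gene and colours for the complexes. Nearly all points lie above the line at 1, and the ratio reaches 4.5 for Atp5e among the shortest genes and is close to 1 for Sdha, Uqcrc2 and Cox6a2.

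Promoters of the genes were looked up because the nuclear subunits are known to share activators, among them NRF1, the estrogen-related receptors (ERR), GABPA and YY1. RefSeq windows of 300 bases (250 before and 50 from the transcription start, build GRCm38.p6) were found by symbol for 77 of the 96 genes, with 82 windows in all. A core of the NRF1 motif, GCGCANGCG on either strand, was present in 28% of the members' windows and in 6.25% of the 32851 windows of all genes. A YY1 motif, AAGATGGCG, was present in 9.76% against 1.4%, an ERR motif, CAAGGTCA, in 4.88% against 1.56%, and a GABPA motif, CCGGAAGTG, in 2.44% against 2.03%. These are matches of letters, not measured binding. By gene, the NRF1 letters were found in 8 of 33 complex I genes, 2 of 3 complex II genes, 2 of 5 complex III genes, 1 of 9 complex IV genes, 7 of 15 complex V genes and 2 of 7 assembly factors. None of the 4 letter strings was found for the 4 isoform genes that had a window.

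The following 5 windows were chosen after their values were seen, 3 to show windows with matches to more than 1 motif in complexes I, II and V, and the last 2 because Ndufc2 and Cox6b2 gave the largest lower and higher calls below. Capitals mark the matches, and each window is written 5′ to 3′ on the strand of its gene. Ndufs6 (chr13:73328433-73328732, minus strand) holds the NRF1 and YY1 letters. Sdhd (chr9:50603800-50604099, minus strand) and Atp5g3 (chr2:73911277-73911576, minus strand) hold the NRF1 and ERR letters. Ndufc2 (chr7:97399753-97400052, plus strand) and Cox6b2 (chr7:4753045-4753344, minus strand) hold none of the strings.
Ndufs6: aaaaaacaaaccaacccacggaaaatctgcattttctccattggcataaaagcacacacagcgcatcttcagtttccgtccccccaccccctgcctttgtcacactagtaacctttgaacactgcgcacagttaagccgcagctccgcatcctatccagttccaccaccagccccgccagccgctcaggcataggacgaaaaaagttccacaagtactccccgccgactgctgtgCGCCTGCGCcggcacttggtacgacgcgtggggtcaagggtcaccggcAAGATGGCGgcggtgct
Sdhd: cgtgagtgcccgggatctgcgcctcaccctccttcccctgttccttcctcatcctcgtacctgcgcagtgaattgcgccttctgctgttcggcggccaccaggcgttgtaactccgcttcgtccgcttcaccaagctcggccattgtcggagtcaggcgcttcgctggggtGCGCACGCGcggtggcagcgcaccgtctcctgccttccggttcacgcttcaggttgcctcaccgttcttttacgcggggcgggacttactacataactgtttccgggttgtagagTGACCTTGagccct
Atp5g3: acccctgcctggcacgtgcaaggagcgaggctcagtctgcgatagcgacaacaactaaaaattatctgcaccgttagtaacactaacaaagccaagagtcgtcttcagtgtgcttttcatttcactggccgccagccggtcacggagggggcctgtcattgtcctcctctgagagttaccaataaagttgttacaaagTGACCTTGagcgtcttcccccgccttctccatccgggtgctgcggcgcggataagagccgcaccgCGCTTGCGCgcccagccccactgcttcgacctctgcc
Ndufc2: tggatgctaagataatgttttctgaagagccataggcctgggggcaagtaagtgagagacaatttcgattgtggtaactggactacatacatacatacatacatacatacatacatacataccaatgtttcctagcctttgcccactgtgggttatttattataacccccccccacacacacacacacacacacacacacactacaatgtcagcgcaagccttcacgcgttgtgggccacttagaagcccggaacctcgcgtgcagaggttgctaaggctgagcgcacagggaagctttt
Cox6b2: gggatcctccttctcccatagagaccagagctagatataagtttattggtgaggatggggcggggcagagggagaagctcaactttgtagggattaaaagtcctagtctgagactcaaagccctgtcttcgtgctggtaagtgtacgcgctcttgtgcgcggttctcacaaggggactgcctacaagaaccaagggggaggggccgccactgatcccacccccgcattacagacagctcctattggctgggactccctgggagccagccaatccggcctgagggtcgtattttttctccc

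Taken per kidney, the mean log2 CPM of the complex I genes was 7.37, 7.33 and 7.26 in Ctr, 7.03, 6.81, 8.26 and 7.02 in Lpr 1 to 4, and 7.10, 6.98, 7.32 and 7.23 in DNase 1 to 4. Leaving Lpr 3 aside, every Lpr kidney lay below every Ctr kidney, and the DNase kidneys reached from below the highest of these Lpr kidneys into the Ctr range. The mean was 7.32 ± 0.0556 in Ctr (SD, n = 3), 6.95 ± 0.125 in Lpr without Lpr 3 (SD, n = 3) and 7.16 ± 0.146 in DNase (SD, n = 4). For complex IV the values were 8.68, 8.70 and 8.67 in Ctr, 8.40, 8.22, 9.68 and 8.40 in Lpr, and 8.46, 8.38, 8.71 and 8.61 in DNase. Complexes II, III and V and the assembly factors had the same order, with Lpr 3 highest of all 11 kidneys, the other Lpr kidneys below Ctr, and DNase kidneys overlapping both. DNase 3 was the highest DNase kidney and DNase 2 the lowest for each of these 6 gene groups. No test was made on these means, because the genes were chosen with earlier results known.

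**Figure D2:**
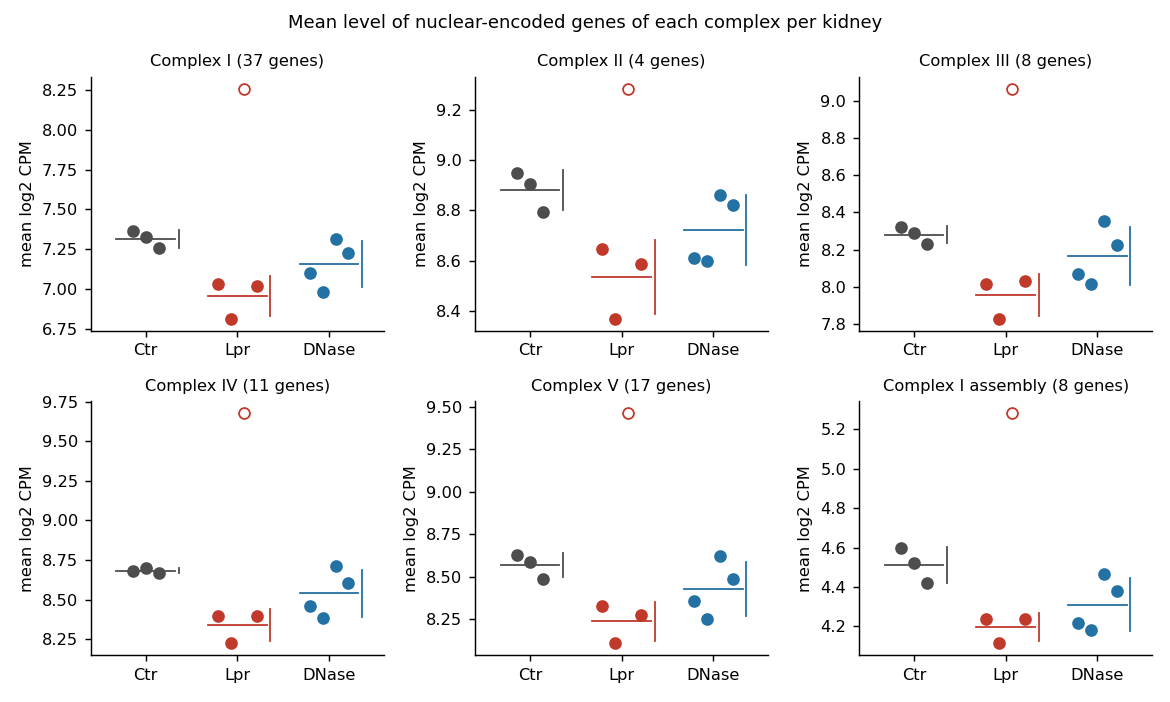
Mean log2 CPM of the genes of each complex (vertical axes, which do not start at 0) in each kidney of the Ctr, Lpr and DNase groups. Each point is 1 kidney, the open point is Lpr 3, and the horizontal and vertical lines are the mean and SD of the group without Lpr 3; in all 6 panels the other 3 Lpr kidneys lie below the Ctr kidneys and the DNase kidneys lie between or overlap them.

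Between Lpr and Ctr with all kidneys, 1 of the 96 genes was called higher in Lpr, beside 7.27% of the 16074 genes tested, and 0 were called lower, beside 2.92%. At an unadjusted p under 0.05 the count was also 1, beside 3434 of the 16074 genes. DESeq2 called 1 higher and 0 lower, beside 2563 of 20381 genes called in either direction and 4.24% called lower. The median log2 fold change was 0.13 over the 96 genes and 0.03 over all genes tested, and with a smooth trend of each library with gene length taken out it was -0.15 over the 96 genes. Without Lpr 3, 38 of the 96 genes (39.6%) were called lower in Lpr, beside 6.79% of 15855 genes, and 1 was called higher, beside 11.0%. DESeq2 without Lpr 3 called 45 lower (46.9%), beside 7.18%. The median over the 96 genes was then -0.33 against 0.00 over all genes, with 91 genes below 0 and 5 above. All 77 subunits of the 5 complexes lay below 0, with medians of -0.34 for complex I, -0.34 for complex II, -0.33 for complex III, -0.33 for complex IV and -0.35 for complex V, a median change of between -21.5% and -20.2%.

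Between DNase and Ctr, 8 of the 96 genes (8.33%) were called lower in DNase, beside 8.61% of the 16100 genes tested, and 1 was called higher, beside 13.1%. In this fit the share of lower calls was near that of all genes. With the fold limit of the study's methods, 0 were lower, beside 1.45%, and 1 was higher (Cox6b2, at 2.01), beside 4.56%. The count of lower calls depended on single kidneys and on the fit. It was 2 (2.08%) without Ctr 1, beside 6.08% of all genes, 5 (5.21%) without Ctr 2, DNase 1 or DNase 2, beside 8.37%, 8.53% and 6.78%, and 16 (16.7%) without DNase 3, beside 7.35%. DESeq2 called 14 lower (14.6%), beside 9.12%, the fit with the trend with gene length taken out called 20 (20.8%), beside 9.8%, the fit with the replicate number as a block called 1 (1.04%), beside 4.01%, and the fit of all 3 groups together called 0, beside 3.64%. Without DNase 3, 2 of the 96 genes were called higher, beside 3010 of 15914 genes called in either direction, 1170 of them lower. The median log2 fold change over the 96 genes was -0.13 against 0.00 over all genes, and 77 of the 96 lay below 0. The medians were -0.14 for complex I, -0.16 for complex II, -0.09 for complex III, -0.11 for complex IV and -0.14 for complex V.

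Between DNase and Lpr, 0 of the 96 genes were called, and 0% of the 15832 genes tested. At an unadjusted p under 0.05, 2 of the 96 genes and 886 of all genes passed, and DESeq2 called 20 genes of which 0 were among the 96. With Lpr 3 the medians were -0.26 for complex I, -0.07 for complex II, -0.19 for complex III, -0.26 for complex IV and -0.21 for complex V. With the trend with gene length taken out the median over the 96 genes was 0.02, against -0.24 otherwise. Without Lpr 3 all 77 subunits lay above 0 in DNase, with medians of 0.19 for complex I, 0.20 for complex II, 0.21 for complex III, 0.20 for complex IV and 0.21 for complex V, against -0.01 over all genes. None of the 96 was called then by edgeR, beside 0% of 16006 genes, although 11 of the 96, all higher in DNase, and 1618 of all genes had an unadjusted p under 0.05. DESeq2 without Lpr 3 called 245 of 20354 genes, 149 of them lower in DNase. Among the 245 were 2 of the 96, Ndufb1 and Cox6b2, both higher in DNase.

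**Figure D3:**
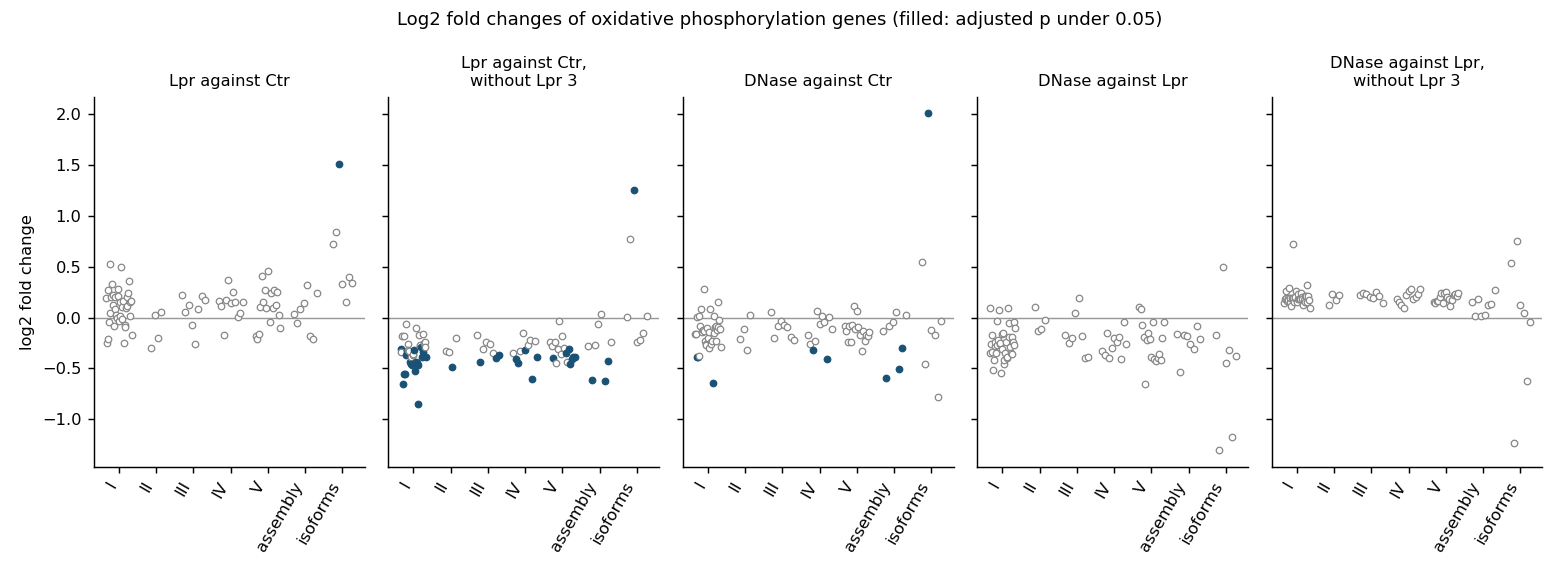
Log2 fold changes (vertical axis) of each gene in 5 comparisons, by complex, with 1 point per gene and filled points for an adjusted p under 0.05 in edgeR. Without Lpr 3 all subunits of complexes I to V lie below 0 in Lpr against Ctr, where 35 are called, and all lie above 0 in DNase against Lpr, where 0 are called.

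Complex I has core subunits that are conserved from bacteria and many accessory subunits around them. In Ctr its genes ranged from 43.4 FPKM for Ndufa11 to 442 FPKM for Ndufb9, both accessory subunits. Without Lpr 3, 19 of the 37 genes were called lower in Lpr against Ctr, beside 6.79% of all genes tested, and with it 0 were called. The largest difference was that of Ndufc2, an accessory subunit of the membrane arm. It had 187, 196 and 189 CPM in Ctr, 107, 104, 323 and 106 CPM in Lpr, and 120, 107, 137 and 122 CPM in DNase. All MRL/lpr kidneys other than Lpr 3 lay below all Ctr kidneys. Its log2 fold change was -0.64 in DNase against Ctr (standard error 0.09, adjusted p = 0.000839 from edgeR) and -0.85 in Lpr against Ctr without Lpr 3 (standard error 0.07, adjusted p = 0.000449). With Lpr 3 the latter was -0.25 (adjusted p = 0.781), and with Lpr 3 and the trend with gene length taken out it was -0.61 (adjusted p = 0.0122), the gene called lower in that fit.

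Ndufa12 and Ndufa13, accessory subunits of complex I, were the other complex I genes called lower in DNase against Ctr. Ndufa13 had 241, 241 and 224 CPM in Ctr, 179, 137, 434 and 162 CPM in Lpr and 165, 162, 199 and 191 CPM in DNase. The fitted log2 difference was -0.39 in DNase against Ctr (standard error 0.09, adjusted p = 0.0159 from edgeR) and -0.56 in Lpr without Lpr 3 (adjusted p = 0.0134), against -0.05 with it (adjusted p = 0.959). Ndufa12 had 127, 131 and 133 CPM in Ctr, 94.2, 62.0, 202 and 92.1 CPM in Lpr and 101, 83.7, 105 and 107 CPM in DNase. On the log2 scale it differed by -0.39 in DNase (adjusted p = 0.0151 from edgeR) and -0.65 in Lpr without Lpr 3 (adjusted p = 0.0279), against -0.21 with it (adjusted p = 0.785). For both genes the Ctr kidneys and the MRL/lpr kidneys other than Lpr 3 did not overlap.

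The 19 genes called lower without Lpr 3 were all accessory subunits, and whether core and accessory subunits differed was not tested. Ndufs1, which carries iron-sulfur clusters of the electron path, had a log2 fold change of -0.17 in Lpr without Lpr 3 (adjusted p = 0.332 from edgeR) and 0.01 in DNase (adjusted p = 0.932). Ndufv1, which binds NADH, had -0.24 (adjusted p = 0.247) and -0.03 (adjusted p = 0.891). With Lpr 3 the Lpr values were -0.07 and 0.02, and neither was called. These core subunits were singled out after their values were seen. Among the genes with the smallest p in Lpr against Ctr, Ndufa10 had -0.25 with Lpr 3 (adjusted p = 0.471 from edgeR) and -0.34 without it (adjusted p = 0.0968), and its level in Lpr 3 was 1.17 times that of the other Lpr kidneys. Ndufb7 and Ndufa2 had 0.50 and 0.53 with Lpr 3 and -0.11 and -0.18 without it, and neither was called. Ndufb2 had the smallest p of complex I in DNase against Lpr, with -0.55 (adjusted p = 0.854) and 0.20 without Lpr 3 (adjusted p = 0.586).

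Ndufb1, an accessory subunit chosen after its values were seen, gave the largest difference between DNase and Lpr in complex I once Lpr 3 was left out. It had 84.6, 78.7 and 76.9 CPM in Ctr, 61.4, 57.8, 194 and 57.3 CPM in Lpr and 119, 90.2, 75.2 and 103 CPM in DNase. The DNase kidneys lay above Lpr 1, 2 and 4 and overlapped Ctr. Its log2 fold change was 0.72 in DNase against Lpr without Lpr 3 (standard error 0.15, adjusted p = 0.272 from edgeR and 0.0029 from DESeq2) and 0.08 with Lpr 3 (adjusted p = 0.967). Against Ctr it was -0.44 in Lpr without Lpr 3 (adjusted p = 0.00893 from edgeR), 0.21 with it (adjusted p = 0.831) and 0.28 in DNase (adjusted p = 0.196).

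Complex II has 4 subunits, all encoded in the nucleus, and is also an enzyme of the citrate cycle. In Ctr, Sdhb had the highest level with 401 FPKM and Sdhd the lowest with 236 FPKM. Sdha, the flavoprotein that oxidizes succinate, had 954, 878 and 887 CPM in Ctr, 748, 628, 787 and 777 CPM in Lpr and 773, 767, 798 and 797 CPM in DNase. It was 2859 bp long and its level in Lpr 3 was 1.05 times that of the other Lpr kidneys, so all 8 MRL/lpr kidneys lay below all 3 Ctr kidneys. The fitted log2 difference was -0.30 in Lpr (standard error 0.16, adjusted p = 0.328 from edgeR), -0.33 without Lpr 3 (adjusted p = 0.0887) and -0.21 in DNase (adjusted p = 0.0986), none of which passed the threshold with edgeR. DESeq2 called Sdha lower in DNase (-0.22, adjusted p = 0.0143) and in Lpr without Lpr 3 (-0.33, adjusted p = 0.0338). It had the smallest p of complex II in DNase against Lpr, with 0.10 (adjusted p = 0.876).

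Sdhc, a membrane anchor of complex II, had 410, 405 and 361 CPM in Ctr, 318, 243, 527 and 274 CPM in Lpr and 268, 278, 356 and 354 CPM in DNase. It was the complex II gene called lower in Lpr without Lpr 3, with -0.49 on the log2 scale (adjusted p = 0.0298 from edgeR), and in DNase it had -0.32 (adjusted p = 0.103). With Lpr 3 it had -0.20 in Lpr (adjusted p = 0.725). Sdhb, the iron-sulfur subunit, had -0.34 in Lpr without Lpr 3 (adjusted p = 0.08 from edgeR and 0.0443 from DESeq2) and -0.11 in DNase (adjusted p = 0.554). Sdhd, the other anchor, had -0.20 (adjusted p = 0.185) and 0.02 (adjusted p = 0.886). With Lpr 3, Sdhb and Sdhd had 0.02 and 0.05 in Lpr (adjusted p = 0.976 and 0.925).

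Complex III ranged in Ctr from 192 FPKM for Uqcrq to 515 FPKM for Uqcr10, both small subunits. Without Lpr 3, 3 of its 8 genes were called lower in Lpr against Ctr, beside 6.79% of all genes tested. These were Uqcrh, the hinge protein that helps to bind cytochrome c, Uqcrq and Uqcr11. Uqcrh had 283, 283 and 274 CPM in Ctr, 217, 193, 663 and 226 CPM in Lpr and 246, 216, 278 and 242 CPM in DNase. On the log2 scale it differed by -0.40 in Lpr without Lpr 3 (standard error 0.09, adjusted p = 0.0218 from edgeR) and 0.21 with it (adjusted p = 0.819), and in DNase it had -0.19 (adjusted p = 0.196). Uqcrq and Uqcr11 had -0.36 and -0.44 in Lpr without Lpr 3 (adjusted p = 0.0257 and 0.0284) and -0.22 and -0.20 in DNase (adjusted p = 0.267 and 0.259). With Lpr 3 they had 0.17 and 0.05 in Lpr (adjusted p = 0.845 and 0.95).

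Uqcrc2, a core protein of complex III, is 1882 bp long, and its level in Lpr 3 was 0.998 times that of the other Lpr kidneys. It had 482, 479 and 465 CPM in Ctr, 396, 366, 395 and 424 CPM in Lpr and 444, 429, 468 and 463 CPM in DNase. All 4 Lpr kidneys lay below all DNase and all Ctr kidneys. Its log2 fold change was -0.26 in Lpr against Ctr with and without Lpr 3, and the adjusted p was 0.343 and 0.0938 from edgeR. In DNase against Lpr it was 0.20 with Lpr 3 (standard error 0.12, adjusted p = 0.854) and 0.19 without it (adjusted p = 0.501). Uqcr10 had 0.22 in Lpr with Lpr 3 and -0.17 without it, and was not called.

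Complex IV ranged in Ctr from 99.6 FPKM for Cox5a to 1181 FPKM for Cox4i1, both accessory subunits around the core that is made by mitochondrial DNA. Without Lpr 3, 5 of its 11 genes were called lower in Lpr against Ctr, beside 6.79% of all genes tested. In DNase against Ctr 2 of the 11 were called lower, beside 8.61%. Cox7c, a small subunit, had 374, 356 and 333 CPM in Ctr, 241, 215, 727 and 241 CPM in Lpr and 251, 244, 297 and 275 CPM in DNase. All MRL/lpr kidneys other than Lpr 3 lay below all Ctr kidneys. The fitted log2 difference was -0.41 in DNase against Ctr (standard error 0.09, adjusted p = 0.0126 from edgeR) and -0.61 in Lpr without Lpr 3 (adjusted p = 0.00418), against 0.01 with it (adjusted p = 0.995). Cox5b had 351, 352 and 335 CPM in Ctr, 268, 235, 469 and 259 CPM in Lpr and 260, 251, 316 and 277 CPM in DNase. On the log2 scale it differed by -0.32 in DNase (adjusted p = 0.0369 from edgeR) and -0.44 in Lpr without Lpr 3 (adjusted p = 0.0124), against -0.17 with it (adjusted p = 0.756).

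Cox5a had -0.26 in DNase (adjusted p = 0.0929 from edgeR) and -0.41 in Lpr without Lpr 3 (adjusted p = 0.0217), and Ndufa4 had -0.11 (adjusted p = 0.451) and -0.39 (adjusted p = 0.0215). Cox4i1 had -0.17 in DNase (adjusted p = 0.396) and -0.35 in Lpr without Lpr 3 (adjusted p = 0.117). When Lpr 3 was included, the values of Cox5a, Ndufa4 and Cox4i1 in Lpr were 0.12, 0.15 and 0.16, and none was called. Cox6a1, Cox7a2, Cox7b and Cox8a, the forms used in liver and kidney where a muscle or other form exists, had between -0.33 and -0.22 in Lpr without Lpr 3, and none of these 4 was called in any comparison by edgeR. Cox6b1 had 346, 352 and 343 CPM in Ctr, 340, 285, 862 and 311 CPM in Lpr and 327, 321, 417 and 387 CPM in DNase. Its log2 fold change was 0.37 in Lpr with Lpr 3 (adjusted p = 0.64 from edgeR), -0.15 without it (adjusted p = 0.322) and 0.07 in DNase (adjusted p = 0.702).

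Cox6b2, known as the testis form of the same subunit, was the gene called higher in the MRL/lpr groups. It had 6.58, 6.13 and 3.57 CPM in Ctr, 13.1, 11.7, 23.3 and 14.0 CPM in Lpr and 17.5, 19.35, 27.3 and 23.1 CPM in DNase. All MRL/lpr kidneys lay above all Ctr kidneys, and all DNase kidneys lay above Lpr 1, 2 and 4. The fitted log2 difference was 2.01 in DNase against Ctr (standard error 0.24, adjusted p = 0.000303 from edgeR), a 4.03-fold level. With RLE scaling of the libraries it was 1.996, with the trend with gene length taken out 1.999, and with DESeq2 it was 2 after rounding. Whether the gene passed the study's fold limit of 2 thus depended on the fit. In Lpr against Ctr it was 1.52 (standard error 0.32, adjusted p = 0.0188) and 1.26 without Lpr 3 (adjusted p = 0.0119), and the call was lost without Ctr 1 (adjusted p = 0.0534), Ctr 2 (0.0623) or Ctr 3 (0.0784), and with the replicate number as a block (0.062). In DNase against Lpr without Lpr 3 it was 0.75 (standard error 0.16, adjusted p = 0.272 from edgeR and 0.00626 from DESeq2), and with Lpr 3 it was 0.50 (adjusted p = 0.854). In Ctr its mean level was 8.62 FPKM against 712 FPKM of Cox6b1.

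**Figure D4:**
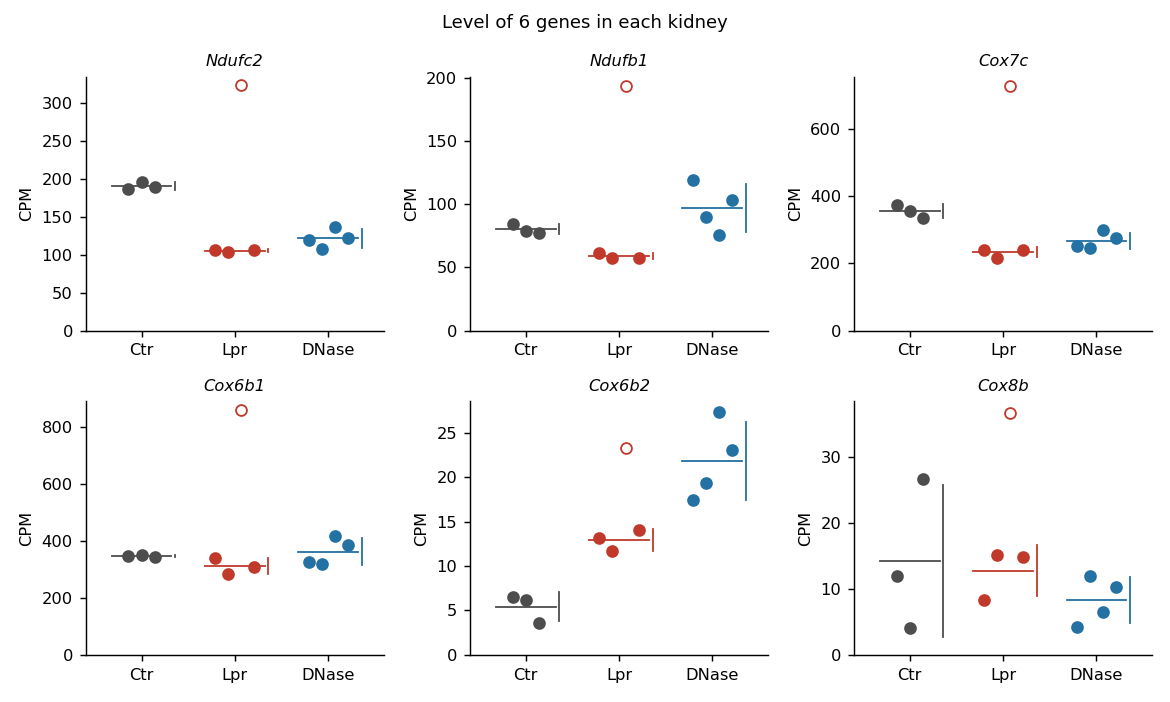
CPM (vertical axes, from 0) of Ndufc2, Ndufb1, Cox7c, Cox6b1, Cox6b2 and Cox8b in each kidney, with open points for Lpr 3 and lines for the mean and SD of each group without Lpr 3. Ndufc2 and Cox7c are lower in the MRL/lpr kidneys other than Lpr 3 than in Ctr, Cox6b2 is higher in all 8 MRL/lpr kidneys, and Ndufb1 in DNase lies above Lpr 1, 2 and 4.

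The other isoforms and relatives of complex IV gave no call in any comparison. Cox7a1, Cox6a2 and Cox8b, the forms of heart and skeletal muscle, had mean Ctr levels of 31.7, 1.18 and 38.4 FPKM, against 305, 911 and 841 FPKM of Cox7a2, Cox6a1 and Cox8a. Cox8b had 11.9, 4.12 and 26.7 CPM in Ctr, 8.36, 15.2, 36.8 and 14.9 CPM in Lpr and 4.30, 11.99, 6.50 and 10.4 CPM in DNase, so that the groups overlapped. Brown fat also expresses Cox8b and Cox7a1, and Ucp1, its defining gene, had 61.3, 0.798 and 149 CPM in Ctr, 0.0281, 0.0522, 19.0 and 8.37 CPM in Lpr and between 0 and 4.38 CPM in DNase. The 4 brown fat markers other than Ppara, which kidney also expresses, summed to 87.0, 2.97 and 197 CPM in Ctr, 0.9003, 1.15, 41.5 and 28.0 CPM in Lpr and between 0.226 and 9.95 CPM in DNase, and Ucp1 and Cidea were at 0 in DNase 3. The 7 skeletal muscle markers summed to between 20.8 and 45.7 CPM in Ctr, between 13.9 and 19.2 CPM in Lpr and between 3.49 and 10.7 CPM in DNase, and all 7 were called lower in DNase against Ctr. The part of other tissues in the levels of these isoforms was not tested. Cox4i2, a form of Cox4i1 known from lung, Ndufa4l2, a relative of Ndufa4 that is induced in hypoxia, and Cox7a2l, a factor of supercomplexes, had log2 fold changes of 0.01, 0.01 and -0.22 in Lpr without Lpr 3, and their adjusted p were 0.989, 0.975 and 0.127 from edgeR. With Lpr 3 the values were 0.72, 0.34 and 0.15.

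Complex V ranged in Ctr from 68.7 FPKM for Atp5j to 1810 FPKM for Atp5b, the catalytic beta subunit. Without Lpr 3, 7 of its 17 genes were called lower in Lpr against Ctr, beside 6.79% of all genes tested. In DNase against Ctr 0 were called lower, beside 8.61%, and 0 higher, beside 13.1%. Atp5md, a small subunit of the membrane part, had 204, 205 and 198 CPM in Ctr, 146, 144, 442 and 152 CPM in Lpr and 159, 152, 196 and 181 CPM in DNase. On the log2 scale it differed by -0.45 in Lpr without Lpr 3 (standard error 0.07, adjusted p = 0.00567 from edgeR), 0.13 with it (adjusted p = 0.889) and -0.23 in DNase (adjusted p = 0.136). Atp5c1, the gamma subunit of the rotor, had -0.40 in Lpr without Lpr 3 (adjusted p = 0.0365) and -0.24 in DNase (adjusted p = 0.104). Atp5k, the e subunit, had -0.44 (adjusted p = 0.0601 from edgeR and 0.0288 from DESeq2) and -0.33 (adjusted p = 0.0777 from edgeR and 0.048 from DESeq2). With Lpr 3, Atp5c1 and Atp5k had -0.16 and 0.10 in Lpr, and neither was called.

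Atp5a1 and Atp5b, the alpha and beta subunits of the catalytic head, are 2432 and 1879 bp long, and their levels in Lpr 3 were 1.12 and 1.17 times those of the other Lpr kidneys. Atp5b had 3608, 3615 and 3348 CPM in Ctr, 3146, 2568, 3467 and 2971 CPM in Lpr and 3164, 2999, 3324 and 3310 CPM in DNase. All DNase kidneys and Lpr 1, 2 and 4 lay below all Ctr kidneys, and Lpr 3 lay within the Ctr range. Atp5b had a log2 fold change of -0.21 in Lpr (standard error 0.17, adjusted p = 0.551 from edgeR), -0.28 without Lpr 3 (adjusted p = 0.193) and -0.14 in DNase (adjusted p = 0.366). Atp5a1 had -0.19, -0.24 and -0.09, and was not called. Atp5h had 0.46 in Lpr with Lpr 3 and -0.18 without it, and was not called in either.

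The 3 genes of the c subunit, whose products form the same ring, differed in level, with 463 FPKM for Atp5g3, 231 FPKM for Atp5g1 and 226 FPKM for Atp5g2 in Ctr. Without Lpr 3, Atp5g3 and Atp5g1 had log2 fold changes of -0.35 and -0.31 in Lpr against Ctr (adjusted p = 0.137 and 0.0841 from edgeR), and Atp5g2 had -0.03 (adjusted p = 0.866). With Lpr 3 the values were 0.10, 0.15 and 0.27, and none was called. The difference between them was not tested. Atp5e, the epsilon subunit and 414 bp long, had 226, 202 and 176 CPM in Ctr, 176, 140, 630 and 125 CPM in Lpr and 153, 136, 227 and 165 CPM in DNase. Its ratio of 4.5 in Lpr 3 was the highest of the 96 genes. In DNase against Lpr it had -0.65 (adjusted p = 0.854 from edgeR) and 0.21 without Lpr 3 (adjusted p = 0.721).

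The 8 assembly factors of complex I ranged in Ctr from 4.16 FPKM for Ndufaf6 to 47.6 FPKM for Ndufaf8. All but Ndufaf8 lay below every subunit gene of the complex, of which Ndufa11 was the lowest with 43.4 FPKM. Of the 8, 3 were called lower in DNase against Ctr, beside 8.61% of all genes tested, and 3 in Lpr against Ctr without Lpr 3, beside 6.79%. Ndufaf2 had 11.6, 10.4 and 9.20 CPM in Ctr, 6.56, 6.65, 19.8 and 7.14 CPM in Lpr and 5.88, 6.90, 8.01 and 6.71 CPM in DNase. Its log2 fold change was -0.59 in DNase (standard error 0.15, adjusted p = 0.0194 from edgeR) and -0.61 in Lpr without Lpr 3 (adjusted p = 0.0343). Ndufaf6 had -0.50 in DNase (adjusted p = 0.0322) and -0.63 in Lpr without Lpr 3 (adjusted p = 0.0114). Ndufaf7, a methyltransferase of complex I assembly, had -0.29 (adjusted p = 0.0451) and -0.43 (adjusted p = 0.0213). When Lpr 3 was included, the Lpr values of Ndufaf2, Ndufaf6 and Ndufaf7 were -0.05, -0.19 and -0.21 (adjusted p = 0.958, 0.807 and 0.658). For these 3 genes the Ctr kidneys lay above every MRL/lpr kidney except Lpr 3. Ndufaf5 had 0.06 in DNase and 0.04 in Lpr without Lpr 3, and Ndufaf8 had 0.02 and -0.24, and neither was called. With Lpr 3 they had 0.32 and 0.24 in Lpr.

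The 4 gene copies, Ndufab1-ps, Ndufb4b, Ndufb4c and Ndufs6b, had mean Ctr levels between 3.08 and 13.5 FPKM, and none was called in any comparison. They resemble Ndufab1, Ndufb4 and Ndufs6, reads may have been split between the copies, and their values are uncertain.

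The 13 subunits encoded by mitochondrial DNA are outside the symbols and are known to belong to complexes I, III, IV and V. They took 9.22%, 10.4% and 10.25% of the counts in Ctr, 5.92%, 5.05%, 3.56% and 6.83% in Lpr and 7.405%, 6.15%, 6.515% and 5.99% in DNase. Every MRL/lpr kidney lay below every Ctr kidney, and Lpr 3 was the lowest of all, where it was the highest for the nuclear genes. COX1, CYTB and ND1 gave most of these counts, with Ctr means of 41841, 20723 and 15019 CPM. COX3, COX2, ATP6, ND3, ND4L, ND6 and ATP8 had Ctr means of 343.7, 209.3, 205.5, 27.4, 27.1, 9.66 and 6.13 CPM. How reads were assigned among these genes was not tested, and the low values are uncertain. In Lpr 3, COX2 and COX3 had 232.5 and 220.8 CPM, within their Ctr ranges, and the rest of the 13 lay below theirs. All 13 lay below 0 against Ctr, with 5 called lower in Lpr, 10 called without Lpr 3 and 11 in DNase, beside 2.92%, 6.79% and 8.61% of all genes tested. Their median log2 fold changes were -1.003, -0.92 and -0.78. ND3, a core subunit of complex I, had 26.7, 31.1 and 24.3 CPM in Ctr, 8.24, 4.51, 11.9 and 9.02 CPM in Lpr and 7.09, 7.01, 9.97 and 7.28 CPM in DNase, without overlap. The fitted log2 difference was -1.80 in DNase (standard error 0.15, adjusted p = 4.49e-05 from edgeR) and -1.70 in Lpr (standard error 0.29, adjusted p = 0.00718).

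COX1, the catalytic subunit of complex IV, had the highest count of the 13, with 39673, 44751 and 41099 CPM in Ctr, 24745, 20775, 12649 and 25159 CPM in Lpr and 28817, 23534, 24317 and 23221 CPM in DNase. On the log2 scale it differed by -1.003 in Lpr (adjusted p = 0.0482 from edgeR), -0.82 without Lpr 3 (adjusted p = 0.0299) and -0.74 in DNase (adjusted p = 0.00445). CYTB, of complex III, had -0.95 in Lpr (adjusted p = 0.0306) and -0.64 in DNase (adjusted p = 0.00796), and ATP6, of complex V, had -1.08 (adjusted p = 0.0626) and -0.81 (adjusted p = 0.0442). ND1, of complex I, had -0.80 (adjusted p = 0.0277) and -0.68 (adjusted p = 0.00634). Without Lpr 3, CYTB, ATP6 and ND1 had -0.86, -0.97 and -0.77 in Lpr (adjusted p = 0.0345, 0.0747 and 0.0239). Between DNase and Lpr 0 of the 13 were called, with a median of 0.27, and 0.16 without Lpr 3.

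Genes around the respiratory chain were taken from hand-written lists. Their counts stand beside 8.61% of all genes called lower and 13.1% called higher in DNase against Ctr, 2.92% and 7.27% in Lpr against Ctr, and 6.79% and 11.0% without Lpr 3. Of 24 electron carriers and feeders, 4 were called lower and 2 higher in DNase against Ctr, 2 lower in Lpr and 4 lower and 1 higher in Lpr without Lpr 3, with medians of -0.14, -0.03 and -0.30. Coq9 and Coq8a, of ubiquinone synthesis, gave the smallest p among the lower ones. Coq9 had 223, 240 and 210 CPM in Ctr, 156, 112, 133 and 143 CPM in Lpr and 146, 141, 152 and 161 CPM in DNase, without overlap. Its log2 fold change was -0.72 in Lpr (adjusted p = 0.0235 from edgeR), -0.71 without Lpr 3 (adjusted p = 0.01) and -0.58 in DNase (adjusted p = 0.00075). Coq8a had -0.85 in Lpr (adjusted p = 0.0316), -0.71 without Lpr 3 (adjusted p = 0.00393) and -0.69 in DNase (adjusted p = 0.000984). Cyc1, the subunit of complex III outside the symbols, had -0.32 in Lpr (adjusted p = 0.269), -0.36 without Lpr 3 (adjusted p = 0.0534) and -0.14 in DNase (adjusted p = 0.408).

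Nnt, the transhydrogenase that makes NADPH from the proton gradient, is known to be disrupted in C57BL/6J mice. It had 174, 175 and 149 CPM in Ctr, 319, 224, 190 and 289 CPM in Lpr and 330, 290, 319 and 290 CPM in DNase, so all MRL/lpr kidneys lay above Ctr. The fitted log2 difference was 0.89 in DNase (standard error 0.09, adjusted p = 0.000144 from edgeR), 0.63 in Lpr (adjusted p = 0.112) and 0.75 without Lpr 3 (adjusted p = 0.0114).

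Of 39 assembly factors outside the symbols that were tested, 3 were called lower and 1 higher in DNase against Ctr, 1 lower and 1 higher in Lpr, and 7 lower and 1 higher in Lpr without Lpr 3, with medians of -0.09, 0.03 and -0.21. Lyrm7, which helps to insert the iron-sulfur protein of complex III, had -2.23 on the log2 scale in DNase (adjusted p = 9.39e-05 from edgeR) and -2.09 in Lpr (adjusted p = 0.00171). Cox18, which helps to insert a core subunit of complex IV, had 1.32 in DNase (adjusted p = 0.00013) and 1.28 in Lpr (adjusted p = 0.00458). Both calls held without Lpr 3, with -2.14 and 1.14. Of 18 genes of the citrate cycle and pyruvate oxidation, 4 were called lower in DNase, 0 in Lpr and 3 in Lpr without Lpr 3, with medians of -0.14, -0.21 and -0.24, among them Pdha1, of pyruvate dehydrogenase, with -0.44 in DNase (adjusted p = 0.00369) and -0.55 in Lpr without Lpr 3 (adjusted p = 0.0237).

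Among 20 regulators of mitochondrial biogenesis, 1 was called higher and 1 lower in DNase, 0 in Lpr and 1 lower in Lpr without Lpr 3, with medians of -0.05, -0.17 and -0.155. Ppargc1a, a coactivator of respiratory genes, had 95.5, 83.7 and 82.3 CPM in Ctr, 67.8, 75.2, 30.0 and 91.7 CPM in Lpr and 93.3, 89.8, 94.2 and 86.4 CPM in DNase. On the log2 scale it differed by -0.39 in Lpr (adjusted p = 0.554 from edgeR), -0.15 without Lpr 3 (adjusted p = 0.466) and 0.06 in DNase (adjusted p = 0.622). Esrra, an estrogen-related receptor, had -0.19 in Lpr (adjusted p = 0.58) and -0.20 in DNase (adjusted p = 0.184).

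The labelled tissue was met by its markers, with 10 proximal tubule genes summing to between 14036 and 16929 CPM in Ctr, 8374 and 15194 CPM in Lpr and 11178 and 15268 CPM in DNase. The lowest Lpr value was that of Lpr 3, and without it 11379 CPM was the lowest. Of these 10 genes, 1 was called higher and 0 lower in Lpr. Without Lpr 3, 2 were called higher and 1 lower, and in DNase 2 higher and 0 lower. Their medians were -0.39, -0.25 and -0.22. Of 5 collecting duct genes, 3 were called lower in Lpr without Lpr 3 and 2 in DNase (medians -0.46 and -0.45). Of 6 thick limb and distal tubule genes, 1 was called lower in each, and 1 higher in DNase (-0.27 and 0.05). Of 4 podocyte genes, 1 was called lower in Lpr without Lpr 3 and 1 higher in DNase (-0.22 and -0.07). With Lpr 3, none of these last lists had a lower call in Lpr. The 12 leukocyte markers summed to between 112 and 170 CPM in Ctr, 804 and 1482 CPM in Lpr and 609 and 1086 CPM in DNase. All 12 lay above 0 against Ctr, with 10 called in Lpr and 12 in DNase, and no marker of the list was at 0 in any kidney. The part of these cells in the levels of the respiratory genes was not tested.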

How the data were processed

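Per the study's methods and the labels, total RNA of each kidney was made into a library with the VAHTS Universal V6 kit and sequenced as paired ends of 100 bp. Reads were cleaned with fastp, the methods name HTSeq, a read counter, for matching reads to genes, and the submitters' processing notes name build mm10 and R 3.2.0. A separate aligner and the annotation are not given in the sources used here. The authors deposited raw counts per gene and FPKM, which are those counts divided by gene length and library size. Here the raw counts were compared with edgeR 4.0.16 in R 4.3.3 (filterByExpr, TMM, quasi-likelihood F-test, only the libraries of both groups compared, Benjamini-Hochberg over all genes tested), and gene length was taken from the ratio of deposited counts to FPKM. CPM were computed after TMM scaling, and log2 CPM with a prior count of 2. The scripts were tested on simulated data. DESeq2 1.42.0, limma 3.58.1 on log2(FPKM + 1) and log2(FPKM + 0.1), other scaling and filters, an offset for the trend with gene length, a replicate block and leaving out each library were tried as alternatives, and DESeq2 without Lpr 3 was added after the data were seen. Within groups, counts of any pair of libraries differed by at least 16.9 times the chi-square that sampling alone would give per degree of freedom, so all 11 were kept as separate samples. Nothing in the labels pairs the groups, and p-values set each group difference against the spread between these kidneys within groups.

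The genes and lists were chosen with earlier results of these data known. Genes named with values were the 3 of smallest p per complex and among the Ndufaf genes in each comparison with Ctr, the 1 of smallest p in DNase against Lpr, those of highest and lowest FPKM, the 4 Sdh genes, the isoforms and copies, and, for the other lists, the 2 of smallest p per direction in Lpr against Ctr with Nnt, Ppargc1a and Esrra. Others are named as chosen after their values were seen, as are Cyc1, Pdha1, the c subunit genes and the mitochondrial genes other than ND3. Promoter sequences were from RefSeq tables of GRCm38.p6. Figures were drawn with matplotlib 3.10.9.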

Additional observations from a re-analysis of the deposited data

Results flagged for a closer look

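In groups of 4 kidneys, 84 sets of values were screened for a kidney far from the others of its group. The screen used Dixon's ratio at its 95% critical value, which chance exceeds in about 1 of 20 independent groups. The sets were not independent, because they come from the same kidneys and the complex means contain the single genes. Lpr 3 was also known beforehand to have raised short genes, so the count of sets only describes it. There were 31 such sets, and in all 31 the kidney was Lpr 3, on the high side. The mean log2 CPM of Lpr 3 was 8.259 for complex I, 9.066 for complex III, 9.678 for complex IV, 9.464 for complex V and 5.282 for the complex I assembly factors, each far above Lpr 1, 2 and 4. Complex II did not pass this screen.

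Among single genes of complex I, Lpr 3 stood apart with 343.5 CPM for Ndufb7, 405.6 CPM for Ndufa2, 323.4 CPM for Ndufc2, 434.1 CPM for Ndufa13, 206.8 CPM for Ndufb2 and 193.6 CPM for Ndufb1. In complex II it did so with 482.2 CPM for Sdhd and 762.2 CPM for Sdhb. In complex III the values were 530.2 CPM for Uqcr10, 663.2 CPM for Uqcrh, 396.8 CPM for Uqcr11 and 662 CPM for Uqcrq. In complex IV they were 862.1 CPM for Cox6b1, 468.9 CPM for Cox5b, 544.5 CPM for Cox7a2, 727 CPM for Cox7c, 679.4 CPM for Cox5a and 1084 CPM for Cox6a1. In complex V they were 723.1 CPM for Atp5h, 262.1 CPM for Atp5k, 441.6 CPM for Atp5md and 630.2 CPM for Atp5e. Among the assembly factors they were 40.77 CPM for Ndufaf7, 53.5 CPM for Ndufaf8, 19.8 CPM for Ndufaf2 and 29.28 CPM for Ndufaf6. The cause was not tested.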

How the results depend on the processing

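The comparisons that contain Lpr depended on Lpr 3. Leaving out 1 kidney at a time, the complex medians of Lpr against Ctr ranged from -0.3403 to 0.2625 for complex I, -0.3376 to 0.03085 for II, -0.3266 to 0.2442 for III, -0.3256 to 0.2804 for IV, -0.3493 to 0.2719 for V and -0.2769 to 0.1624 for the assembly factors. Those of DNase against Lpr ranged from -0.43 to 0.1887, -0.1962 to 0.1977, -0.3512 to 0.2147, -0.4308 to 0.2009, -0.3789 to 0.2066 and -0.3468 to 0.1311, and those of DNase against Ctr from -0.1939 to -0.09373, -0.2081 to -0.1214, -0.1478 to -0.05258, -0.1561 to -0.0684, -0.1867 to -0.09894 and -0.149 to -0.05214. DESeq2 without Lpr 3, added after the data were seen, gave -0.34, -0.3377, -0.3266, -0.3248, -0.3488 and -0.2762 in Lpr against Ctr and 0.1887, 0.198, 0.2146, 0.2009 and 0.2063 for complexes I to V in DNase against Lpr. The direction of DNase against Ctr was the same for all 6 gene groups in each of these fits.

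The number of the 96 genes called, leaving out 1 kidney at a time, was 0 to 1 higher and 0 to 38 lower in Lpr against Ctr, 1 to 2 higher and 2 to 16 lower in DNase against Ctr, and 0 to 0 in DNase against Lpr. The replicate number as a block gave 0 higher and 0 lower in Lpr against Ctr, beside 1246 of 15855 genes called in either direction (1.99% lower). In DNase against Ctr it gave 1 higher and 1 lower, beside 1862 of 15950 (4.01% lower). In DNase against Lpr it gave 0, beside 0 of 15832. Same-numbered kidneys had correlations of their deviations from group means between -0.277 and 0.159. These cannot settle whether same-numbered kidneys shared a batch, because each group mean rests on few kidneys and that of Lpr contains Lpr 3. Lower calls in DNase against Ctr were 14 with DESeq2 (14.6%, beside 9.12% of all genes). With limma on log2(FPKM + 1) and log2(FPKM + 0.1) they were 5 and 4 (5.21% and 4.17%, beside 5.89% and 5.8%). They were 20 with an offset for gene length (20.8%, beside 9.8%), 0 with all 3 groups in one fit (beside 3.64%) and 0 with the fold limit of the study (beside 1.45%). In Lpr against Ctr, the fold limit left 0 higher, beside 929 of 16074 genes called in either direction. The length offset gave 1 lower there, Ndufc2 (1.04%, beside 4.4%). DESeq2 without Lpr 3 gave 45 lower there (46.9%, beside 7.18%). In DNase against Lpr, DESeq2 without Lpr 3 gave 2 higher, beside 245 of 20354 genes called in either direction, 149 of them lower.

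Single genes turned their sign as follows. With the length offset in Lpr against Ctr these were Sdhd (-0.139), Uqcr10 (-0.04742), Uqcrh (-0.1624), Cox7a2 (-0.06768) and Ndufaf8 (-0.07625). Without Lpr 3 they turned in Lpr against Ctr, where leaving out 1 kidney at a time gave -0.1068 to 0.672 for Ndufb7, -0.1772 to 0.7083 for Ndufa2, -0.1983 to 0.1456 for Sdhd, -0.1668 to 0.3327 for Uqcr10, -0.3974 to 0.3832 for Uqcrh, -0.1497 to 0.5256 for Cox6b1, -0.2685 to 0.4001 for Cox7a2, -0.1819 to 0.6391 for Atp5h and -0.2442 to 0.3728 for Ndufaf8, and DESeq2 without Lpr 3 gave, in this order, -0.1065, -0.1769, -0.1981, -0.1664, -0.3974, -0.1492, -0.2682, -0.1817 and -0.2444. In DNase against Lpr the ranges were -0.767 to 0.2039 for Ndufb2, -0.5726 to 0.09765 for Cox6a1, -0.8846 to 0.208 for Atp5e, -0.7012 to 0.01967 for Ndufaf2 and -0.1053 to 0.7209 for Ndufb1, and DESeq2 without Lpr 3 gave 0.2039, 0.09783, 0.2082 and 0.02008 for the former 4. Of the values of named genes under all alternatives, 625 kept direction and side of the threshold, 46 lost a call, 19 gained one and 35 turned sign. The cause was not tested beyond the settings named.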
